A study of Homo sapiens with 12 samples.

Results

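The genes described here encode the factors that bring ribosomes to mRNAs, move them along and release the finished protein. They were the rows of the Huh7 table whose symbol begins with EIF1 to EIF6, EEF1 or EEF2, or is ETF1, GSPT1, PABPC1 or PABPC4, without EEF1E1 and without rows described as pseudogenes. This rule found 80 of 60666 listed genes after 141 pseudogene rows were left out. Of the 80, 73 were grouped by role, and the other 7 are antisense, divergent or readthrough transcripts that carry a factor's name. A gene was tested when at least 3 libraries had 1 TPM or more (a transcript abundance, reads per transcript length scaled to a fixed total per library), which held for 73 members and for 14394 genes in all.

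The cells were Huh7, an established human hepatocellular carcinoma line, kept as lentivirally transduced lines under puromycin. The 3 control libraries carried a control construct, and the 3 shFAM111B libraries carried a short hairpin RNA against FAM111B, the gene whose role in liver cancer cells the study addressed. Hep3B libraries of the same design were not analysed here. The study's methods say in general terms that experiments were repeated, but neither they nor the labels say whether these libraries came from separate cultures or from more than one transduced line, so the p-values measure the spread between these libraries, which may be technical. FAM111B (ENSG00000189057) was at 7.84, 8.29 and 7.99 TPM in the control libraries against 0.96, 1.13 and 0.84 TPM in the knockdown libraries, always given in the order of replicates 1 to 3. By limma its log2 fold change was -2.20, with a standard error of 0.113 and an adjusted p of 6.09e-06. Among the knockdown libraries FAM111B reached 1 TPM only in replicate 2. It thus passed the filter only through the control libraries and could enter the test only as a lower gene. Its p-value is therefore no result, and the knockdown is read from the TPM. The hairpin's target, CTGCCTAGTGATTCTCATT, matched 5 FAM111B transcripts in full, and its longest exact match on either strand of any transcript of the 80 members was 12 nt, in EIF4E, EIF4E3 and EEF1AKMT3. The hepatocyte markers, 8 of 8 of which were tested, were split with 4 higher and 4 lower at an adjusted p under 0.05, and their summed level was 22270 ± 90.3 TPM (SD, n = 3) in control and 39810 ± 2549 TPM in shFAM111B cells, with AFP the most abundant in shFAM111B cells. With the deposited TPM the log2 fold change was -0.63 for ALB and 1.66 for AFP. Of the leukocyte markers, PTPRC and CD3E did not pass the filter, with PTPRC at 2.39 TPM in control replicate 3 and at most 0.13 TPM elsewhere. LYZ was the most abundant of them at 262.2 ± 3.47 TPM in control and 304.2 ± 16.4 TPM in shFAM111B cells, and CD68 was at 16.3 ± 1.30 and 22.6 ± 0.755 TPM. The endothelial list summed to 1.92 ± 0.538 and 2.80 ± 0.725 TPM with KDR listed at 0, and the fibroblast list to 10.6 ± 1.12 and 17.3 ± 3.23 TPM with COL1A2 the most abundant. Of the fibroblast markers 3 were tested, with 2 higher (COL1A2 and LUM) and 0 lower at an adjusted p under 0.05. LUM went from 0.84, 1.14 and 0.67 TPM to 2.27, 3.31 and 2.80 TPM. Among the control libraries it reached 1 TPM only in replicate 2. LUM thus passed the filter only through the shFAM111B libraries, and its call is no result. By the group means COL1A2 went from 6.68 to 10.1 TPM, PDGFRB from 1.95 to 3.38 TPM and COL3A1 from 0.407 to 0.747 TPM. COL1A1, which did not pass the filter, was the only one of this list to fall, from 0.57, 0.68 and 0.76 TPM to 0.26, 0.32 and 0.21 TPM. The part of these cell type markers in the results below was not tested, and in bulk RNA fewer cells of a type and less RNA per cell cannot be told apart.

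Initiation begins when eIF2 brings the initiator tRNA to the small ribosomal subunit, where eIF3, eIF1 and eIF1A hold the scanning complex together. The eIF4 factors bind the cap and unwind the leader, poly(A)-binding protein joins the tail to the cap, and eIF5 and eIF5B release factors so that the large subunit can join. Elongation then relies on eEF1A, which delivers aminoacyl-tRNA, on the eEF1B complex that recharges it, and on eEF2, which moves the ribosome one codon on. Phosphorylation of the alpha subunit of eIF2 by stress kinases lowers initiation, and proteins that bind eIF4E keep it from the cap complex.

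Many mRNAs for elongation factors and ribosomal proteins are TOP mRNAs, which start with a C and an unbroken run of pyrimidines and whose translation follows growth signals. The sequences below show 8 of the 13 members that begin this way and EEF1G, a listed TOP mRNA whose annotated start does not. They run from 10 bases before to 20 bases from a start annotated by RefSeq (GRCh38.p14), 5′ to 3′, and capitals mark the pyrimidines that begin at the start base.
EEF1A1 (chr6:73521013-73521042, minus strand): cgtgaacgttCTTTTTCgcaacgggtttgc
EEF2 (chr19:3985444-3985473, minus strand): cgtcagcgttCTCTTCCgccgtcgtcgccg
EEF1B2 (chr2:206159885-206159914, plus strand): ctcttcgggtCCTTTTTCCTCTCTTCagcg
EIF3F (chr11:7987327-7987356, plus strand): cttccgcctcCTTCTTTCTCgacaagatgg
EIF4B (chr12:53006446-53006475, plus strand): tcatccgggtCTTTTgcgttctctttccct
EIF2S3 (chrX:24054946-24054975, plus strand): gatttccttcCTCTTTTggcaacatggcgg
EIF2A (chr3:150546777-150546806, plus strand): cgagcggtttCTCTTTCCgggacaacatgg
EIF3K (chr19:38619178-38619207, plus strand): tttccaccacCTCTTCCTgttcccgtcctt
EEF1G (chr11:62573872-62573901, minus strand): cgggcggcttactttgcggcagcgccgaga
A C at the start base followed by at least 4 C or T bases, on the gene's own strand, was found for 13 of the 63 members with an entry (20.6%) and for 5.14% of all genes with one. It was found for 5 of the 6 genes with a searched entry on a list of 11 TOP mRNAs, and EEF1G was the other. Starts of EEF1D, EIF3E, EIF3H, PABPC1 and EIF4EBP1 were left out of the search, so these genes were not shown to lack such a run. The search over all genes was not limited in this way, so the shares of 20.6% and 5.14% do not come from like sets. With the deposited TPM 6 of these 11 listed genes were lower and 3 higher at an adjusted p under 0.05, and in all of the scalings described below 3 were lower and 1 was higher, beside 29.3% and 17.5% of all tested genes. Of the 13 members with such a start, 6 were lower and 3 higher at an adjusted p under 0.05 by limma with the deposited TPM, beside 50.9% lower and 21.1% higher among all tested genes. Their median log2 fold change was -0.27 and ran from -1.53 for EIF4B to 0.60 for EIF3K, beside -0.49 for the 43 tested members with an entry and no such start. A match describes these letters and not a site of regulation.

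The factors did not move as a block. With the TPM as deposited, 21 of 73 tested members (28.8%) were lower in shFAM111B cells by at least 2-fold at P under 0.05, where 23.7% of all tested genes were, and 2 members (2.74%) were higher, where 6.82% of all tested genes were. These 2 were EIF3C and EIF4EBP3. EIF4EBP3 dropped out when every library needed 1 TPM, and its call is no result for the reason given with that gene below. EIF3C fell short of 2-fold under quantile normalization (log2 fold change 0.96) and after rescaling without mitochondrial and short RNA genes (0.99). The 21 had non-overlapping groups, standard errors of 0.0414 to 0.134 on the log2 scale and adjusted p from 2.4e-06 to 0.000276 by limma. At an adjusted p under 0.05 with no fold limit 42 members (57.5%) were lower, beside 50.9% of all tested genes, and 15 (20.5%) were higher, beside 21.1%. The groups did not overlap for 62 members (84.9%), beside 75.2% of all tested genes. The shares of members at the adjusted p alone were near those of the whole table. By at least 2-fold, the share lower (28.8%) lay above its background and the share higher (2.74%) below it. Neither difference was tested, and the share higher counts EIF4EBP3.

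The direction of a mid-range member depended on how libraries were scaled. The median tested gene had a log2 fold change of -0.36 and the median member one of -0.44, with the deposited TPM. The member and all-gene medians were 0.01 and 0.03 after median-of-ratios scaling, -0.03 and -0.01 with upper-quartile scaling, -0.38 and -0.03 with quantile normalization, 0.09 and 0.17 after subtraction of library medians, and -0.57 and -0.48 after rescaling without mitochondrial and short RNA genes. Of the calls at 2-fold, 8.7% of those among members and 22.3% of those among all genes were higher with the deposited TPM. These shares were 44.4% and 53% under median-of-ratios scaling, 44.4% and 49.9% under upper-quartile scaling, 8.33% and 47.8% under quantile normalization, 66.7% and 66.6% after subtraction of library medians, 3.85% and 16.5% after rescaling, and 38.5% and 51.2% with the trend with length and expression removed. EIF4EBP3, whose call is no result, was among the higher members in each of these settings. It was the only higher member under quantile normalization and after rescaling, so no conclusion is drawn from the member shares there. Mitochondrial and short RNA genes held 20.7%, 20.7% and 19.8% of the TPM in the control libraries and 12.6%, 15.2% and 7.89% in the shFAM111B libraries, so the libraries also differed in what else was counted, and the part of this in the results was not tested. Under 6 scalings (the deposited TPM, median-of-ratios, upper-quartile, quantile, subtraction of each library's median, and rescaling without mitochondrial and short RNA genes) 24 members (32.9%) were lower at an adjusted p under 0.05 each time, beside 29.3% of all tested genes. Another 8 members (11%), EIF4EBP3 among them, were higher each time, beside 17.5% of all tested genes. The other 41 tested members passed in no direction under all 6, and 26 members had both signs among the scalings. The words "in all scalings" below mean these 6. Fold changes are differences of log2(TPM + 1), and on this scale the change of weakly expressed genes is understated.

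**Figure D1:**
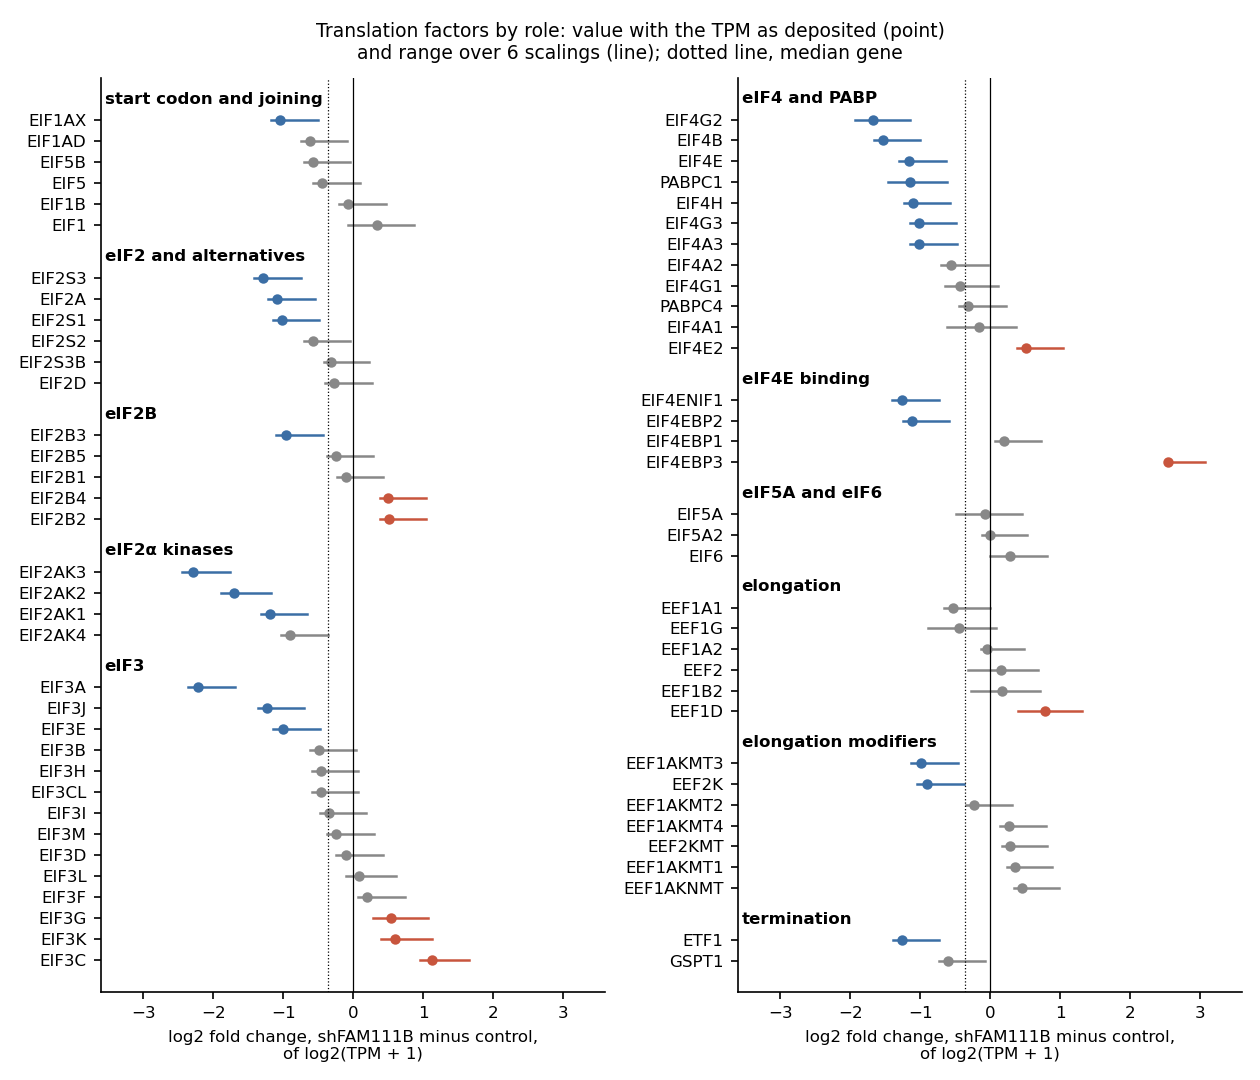
Log2 fold change (shFAM111B minus control, of log2(TPM + 1)) of the 69 tested members with a role. Points are values from the deposited TPM, lines span the lowest and highest value over 6 scalings, blue marks members lower and red those higher at an adjusted p under 0.05 in all 6, grey the rest, and the dotted line is the median tested gene at -0.36. The eIF2α kinases and most of the eIF4 group lie left of 0, while the eIF3, eIF2B and elongation groups spread to both sides.

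The kinases that phosphorylate eIF2 fell together. All 4 were lower at an adjusted p under 0.05 (beside 50.9% of all tested genes), 3 of them by at least 2-fold (beside 23.7%). Their median log2 fold change was -1.45 with the deposited TPM, -0.91 after subtraction of library medians and -0.73 with the trend with length and expression removed. EIF2AK3 (PERK, the kinase that senses unfolded protein in the endoplasmic reticulum; ENSG00000172071, chr2:88556741-88627576) had 28.5, 24.4 and 21.6 TPM in the control libraries and 4.36, 4.86 and 3.64 TPM in the shFAM111B libraries. It was 5.79-fold lower by the group means, with a log2 fold change of -2.29 (standard error 0.134), the largest fall of any tested member with the deposited TPM. Under quantile normalization EIF3A (-1.96) and EIF4G2 (-1.93) fell more than EIF2AK3 (-1.80). EIF2AK1 (HRI, the haem-regulated kinase and the most abundant of the 4) went from 87.9, 91.6 and 88.2 TPM to 40.9, 43.9 and 32.2 TPM, a log2 fold change of -1.19 (standard error 0.111). EIF2AK2 (PKR, which senses double-stranded RNA) was at 6.87, 6.46 and 6.19 TPM in control and 1.24, 1.52 and 1.14 TPM in shFAM111B cells. These 3 fell in all scalings. EIF2AK4 (GCN2, which responds to uncharged tRNA) had a log2 fold change of -0.90 (standard error 0.181), from 18.8 ± 2.34 TPM to 9.78 ± 2.35 TPM (SD, n = 3), and its change did not pass in all scalings. Once the trend with length and expression was taken out the value of EIF2AK4 was -0.01.

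The kinases did not fall by the same factor, and their mixture shifted. EIF2AK3 made up 17.8% ± 2.40 (SD, n = 3) of the summed kinase TPM in control and 7.91% ± 0.332 in shFAM111B cells. EIF2AK1 went from 64.0% ± 0.878 to 71.9% ± 1.08 and EIF2AK4 from 13.5% ± 1.78 to 17.8% ± 1.57 of that sum. Such shares within a library do not change when a library is rescaled by a factor. They were chosen after seeing the data, the groups did not overlap for any of the 4 kinases, and the exact two-sided permutation p was 0.1 for each, the smallest that 3 libraries against 3 allow.

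The eIF2 trimer itself fell unevenly. EIF2S3, the gamma subunit that binds GTP and the initiator tRNA (ENSG00000130741), had 72.8, 67.8 and 70.3 TPM in control and 27.2, 29.5 and 28.2 TPM in shFAM111B cells, 2.49-fold lower with a log2 fold change of -1.28 (standard error 0.0573). EIF2S1, the alpha subunit that the kinases phosphorylate, went from 134.2 ± 2.13 to 66.1 ± 4.55 TPM, a log2 fold change of -1.01. EIF2S2, the beta subunit and the most abundant of the group, went from 167, 165 and 161 TPM to 109, 114 and 107 TPM. Its log2 fold change of -0.58 did not pass in all scalings, whereas EIF2S1 and EIF2S3 fell in each of them. The ratio of EIF2S2 to EIF2S3 went from 2.34 ± 0.0805 to 3.88 ± 0.106, and no library of one group lay within the range of the other. EIF2A, a separate protein that can deliver initiator tRNA outside the eIF2 route, fell as well, from 50.6, 52.3 and 49.0 TPM to 24.9, 24.4 and 21.0 TPM (log2 fold change -1.08, standard error 0.0775). EIF2D, whose log2 fold change was -0.27, overlapped between the groups, and so did EIF2S3B, a near-identical copy of EIF2S3 that lay at 1.92 ± 0.348 and 1.35 ± 0.327 TPM. Reads shared by EIF2S3 and EIF2S3B could be split between them.

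eIF2B, the 5-subunit exchange factor that recharges eIF2 with GTP, split in direction. EIF2B2 (beta) had 25.2, 26.1 and 28.7 TPM in the control libraries and 36.5, 40.3 and 38.1 TPM in the shFAM111B libraries, a log2 fold change of 0.51 (standard error 0.0724). EIF2B4 (delta) went from 23.9, 23.1 and 26.3 TPM to 34.9, 30.8 and 39.9 TPM, a log2 fold change of 0.50 (standard error 0.104). With the trend with length and expression removed these values were 1.15 for EIF2B2 and 1.16 for EIF2B4. EIF2B3 (gamma) went the other way, from 9.49, 10.1 and 12.5 TPM to 4.91, 5.85 and 4.25 TPM, with a log2 fold change of -0.96 (standard error 0.144). These 3 kept their direction in all scalings. EIF2B5, the catalytic epsilon subunit and the most abundant over all libraries, had 41.8, 44.8 and 43.5 TPM in control and 34.5, 35.4 and 39.4 TPM in shFAM111B cells. The log2 fold change of EIF2B5 was -0.25 with the deposited TPM and -0.38 after rescaling, and reversed to between 0.09 and 0.29 under the median-of-ratios, upper-quartile, quantile and median-subtracted scalings. It also missed the threshold without control replicate 2 (adjusted p = 0.0532 by limma) or shFAM111B replicate 1 (0.0523). EIF2B1 (alpha) had a value of -0.10 that did not pass. In terms of shares, EIF2B3 went from 8.16% ± 0.850 to 3.63% ± 0.698 and EIF2B5 from 33.2% ± 1.27 to 26.2% ± 0.617 of the summed eIF2B TPM, while EIF2B2 went from 20.4% ± 0.545 to 27.6% ± 1.79.

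**Figure D2:**
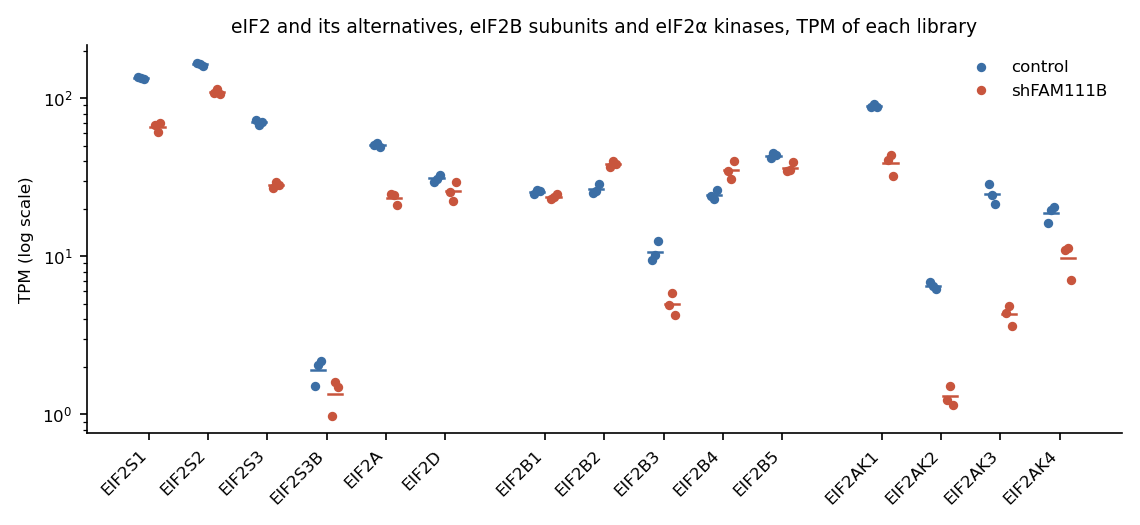
TPM (log scale) of the tested eIF2 subunits and alternatives, eIF2B subunits and eIF2α kinases. Each point is a library, bars are group means, blue is control and red is shFAM111B; EIF2AK3 drops from 24.8 to 4.29 TPM by the means while EIF2B2 and EIF2B4 lie higher in every shFAM111B library than in any control library.

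The subunits of eIF3, the largest initiation factor, moved apart from each other. The 14 listed genes summed to 2602 ± 45.8 TPM in control and 2618 ± 243.1 TPM in shFAM111B cells (SD, n = 3) as deposited, with overlapping libraries, and this sum scales with the libraries. The list's median log2 fold change was -0.29 with the deposited TPM, 0.16 after median-of-ratios scaling, 0.24 after subtraction of library medians and -0.42 after rescaling. At an adjusted p under 0.05, 8 were lower and 4 were higher, beside 50.9% and 21.1% of all tested genes. In all scalings 3 were lower and 3 were higher, beside 29.3% and 17.5%.

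EIF3A, the largest subunit and a scaffold of the complex (ENSG00000107581, chr10:119033670-119080823), had 102, 95.4 and 90.8 TPM in control and 20.3, 21.8 and 17.5 TPM in shFAM111B cells. It was 4.84-fold lower, with a log2 fold change of -2.22 (standard error 0.0896). EIF3J, a loosely bound subunit at the mRNA channel, went from 140, 137 and 131 TPM to 55.8, 55.7 and 60.6 TPM, a log2 fold change of -1.23 (standard error 0.0548). EIF3E went from 229.1 ± 11.8 to 113.6 ± 8.92 TPM. These are the 3 subunits that fell in all scalings.

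EIF3C, which with EIF3A forms the core of the complex, went the opposite way. It had 163, 166 and 180 TPM in the control libraries and 375, 311 and 438 TPM in the shFAM111B libraries, a log2 fold change of 1.12 (standard error 0.119). This value was 0.96 under quantile normalization and 0.99 after rescaling, so the call at 2-fold was lost there. Its near-identical copy EIF3CL on the same chromosome (EIF3C, chr16:28688558-28735730; EIF3CL, chr16:28379579-28403879) had 54.9, 59.4 and 65.3 TPM and then 44.7, 40.7 and 44.2 TPM, so the split of reads between the copies is uncertain. Their sum went from 229.8 ± 14.2 to 418.0 ± 65.1 TPM, and its libraries did not overlap. The ratio of EIF3C to EIF3A was 1.60, 1.75 and 1.99 in control and 18.5, 14.3 and 25.0 in shFAM111B cells.

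EIF3G and EIF3K also rose in all scalings. EIF3G, a subunit that binds RNA and eIF4B and the most abundant of the group over all libraries, went from 302, 299 and 322 TPM to 444, 410 and 497 TPM (log2 fold change 0.54, standard error 0.0750). EIF3K, a peripheral subunit, went from 216, 224 and 247 TPM to 351, 311 and 382 TPM (log2 fold change 0.60, standard error 0.0862). With the trend with length and expression removed EIF3K had a value of 0.27 and no longer passed. EIF3F had a value of 0.20, EIF3L of 0.08 and EIF3D of -0.11. EIF3B, EIF3H, EIF3I, EIF3M and EIF3CL lay between -0.49 and -0.24, passed with the deposited TPM and changed sign in at least 1 scaling. Within a library, EIF3A went from 3.70% ± 0.270 to 0.768% ± 0.151 of the summed eIF3 TPM and EIF3C from 6.53% ± 0.241 to 14.2% ± 1.12. EIF3L was the one subunit whose shares overlapped between the groups.

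**Figure D3:**
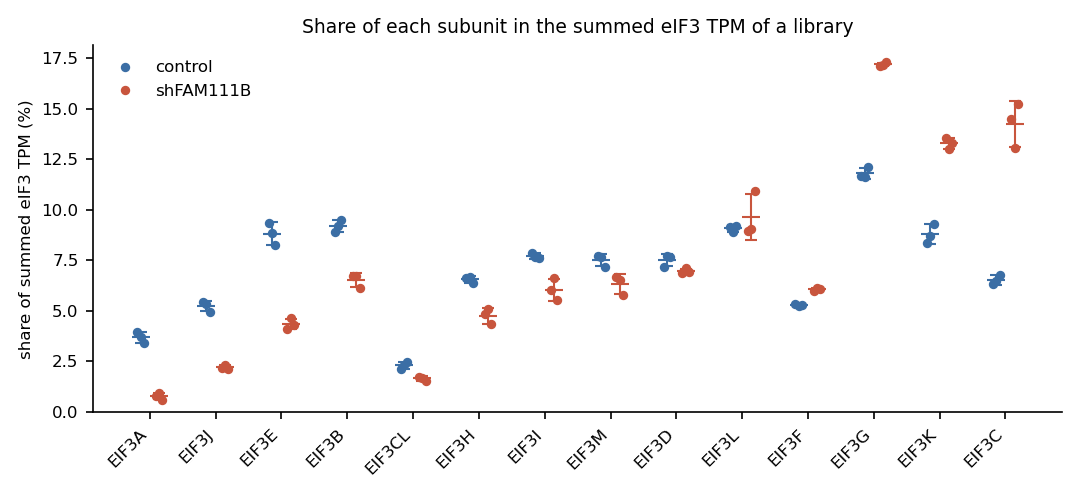
Share (%) of each of the 14 eIF3 genes in the summed eIF3 TPM of its library, ordered by the ratio of the group means. Points are libraries, dashes and bars are mean ± SD (n = 3), blue is control and red is shFAM111B; EIF3A, EIF3J and EIF3E shrink to below their control range, EIF3G, EIF3K and EIF3C grow above it, and EIF3L overlaps.

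The eIF4 factors and poly(A)-binding proteins were mostly lower with the deposited TPM. Of 12 tested, 11 were lower at an adjusted p under 0.05 (beside 50.9% of all tested genes), 7 of them by at least 2-fold (beside 23.7%), and 1 was higher. The list's median log2 fold change was -1.01 with the deposited TPM, -0.57 after median-of-ratios scaling, -0.48 after subtraction of library medians and -0.30 with the trend with length and expression removed. Its summed level went from 3923 ± 47.5 to 2584 ± 41.9 TPM. EIF4G2 (DAP5, a relative of the scaffold eIF4G that lacks its eIF4E site) went from 521, 547 and 492 TPM to 159, 180 and 149 TPM, a 3.20-fold fall with a log2 fold change of -1.67 (standard error 0.0784). EIF4B, which stimulates the helicase eIF4A, went from 228, 230 and 219 TPM to 78.6, 79.7 and 74.2 TPM, a log2 fold change of -1.53 (standard error 0.0482). EIF4H, a smaller protein with the same role, went from 224.4 ± 4.26 to 103.9 ± 3.96 TPM. EIF4E, PABPC1, EIF4G3 and EIF4A3, the last a core protein of the exon junction complex, were the other 4 with a fall of at least 2-fold, with log2 fold changes from -1.16 to -1.01. All 7 fell in all scalings, and with the length and expression trend removed EIF4G3 did not pass (-0.12) and EIF4E was at -0.29 (adjusted p = 0.0478 by limma).

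The helicase EIF4A1, the most abundant gene of the group, had no direction that held across scalings. It had 1330, 1337 and 1419 TPM in control and 1203, 1248 and 1209 TPM in shFAM111B cells, and its log2 fold change of -0.16 was -0.62 under quantile normalization and -0.29 after rescaling, and reversed to 0.26 to 0.37 under the median-of-ratios, upper-quartile and median-subtracted scalings. It did not pass without shFAM111B replicate 1 (adjusted p = 0.0590 by limma). A readthrough gene that overlaps it, SENP3-EIF4A1, was at 3.81 ± 0.481 and 3.94 ± 0.814 TPM. EIF4G1, the main scaffold, went from 308.2 ± 7.98 to 228.9 ± 4.30 TPM, and its log2 fold change of -0.43 was -0.64 under quantile normalization and -0.56 after rescaling, and turned to 0.03 and 0.11, which did not pass, under the median-of-ratios and median-subtracted scalings. EIF4E1B was listed at 0 in every library and EIF4E3 stayed under the filter.

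The cap-binding paralogs moved apart. EIF4E, which binds the cap and recruits eIF4G (ENSG00000151247), had 45.2, 42.5 and 41.8 TPM in control and 15.6, 21.3 and 19.6 TPM in shFAM111B cells. EIF4E2 (4EHP, which binds the cap without recruiting eIF4G and can repress translation; ENSG00000135930) had 91.1, 93.2 and 84.0 TPM in control and 124, 115 and 146 TPM in shFAM111B cells, a log2 fold change of 0.51 (standard error 0.0932) that held in all scalings. The EIF4E2 share of the pair went from 66.9%, 68.7% and 66.8% to 88.8%, 84.4% and 88.2%. The ratio of EIF4E2 to EIF4E went from 2.07 ± 0.103 to 6.94 ± 1.35.

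Other pairs shifted as well, with non-overlapping groups and the exact permutation p of 0.1 that is the smallest possible here. PABPC1 (the main cytoplasmic poly(A)-binding protein) fell from 510, 519 and 536 TPM to 238, 240 and 229 TPM, and PABPC4 had 142, 157 and 167 TPM and then 127, 119 and 128 TPM. The PABPC4 share of that pair went from 22.9% ± 0.998 to 34.6% ± 1.34, although the log2 fold change of PABPC4 alone was -0.31 and ran from -0.44 after rescaling to 0.22 after subtraction of library medians. The EIF4A2 share of EIF4A1 and EIF4A2 went from 16.9% ± 0.518 to 13.3% ± 0.507, with EIF4A2 at 279, 272 and 276 TPM and then 191, 194 and 176 TPM. The EIF4G3 share of EIF4G1 and EIF4G3 went from 7.35% ± 0.280 to 4.83% ± 0.430, and the EIF1B share of EIF1 and EIF1B from 15.5% ± 0.669 to 12.2% ± 0.971. EEF1A2, the form of muscle and neurons, was 0.0145% ± 0.000759 of its pair with EEF1A1 and then 0.0198% ± 0.00315. EEF1A2 itself lay near the filter, at 1.09, 1.18 and 1.08 TPM and then 0.92, 1.23 and 1.00 TPM. Its groups overlapped and its log2 fold change of -0.05 did not pass (adjusted p = 0.759 by limma), so its share does not show a rise of EEF1A2. The EIF5A2 share of EIF5A and EIF5A2 overlapped between the groups (exact permutation p = 1), with shFAM111B replicate 3 at 0.838% and the other two shFAM111B libraries at 0.305% and 0.302%.

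**Figure D4:**
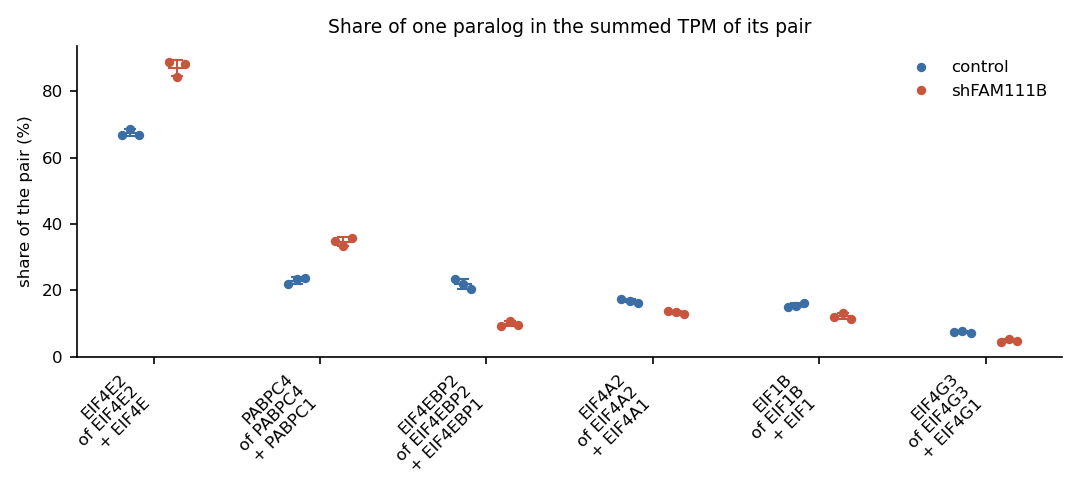
Share (%) of one paralog in the summed TPM of its pair for 6 of the 8 pairs, the 2 pairs with shares under 1% left out. Points are libraries, dashes and bars are mean ± SD (n = 3), blue is control and red is shFAM111B; EIF4E2 and PABPC4 lie higher in each shFAM111B library than in any control library, and the other 4 lie lower.

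Of the 4 genes for proteins that bind eIF4E, 2 were lower at an adjusted p under 0.05, beside 50.9% of all tested genes. The only higher call with the deposited TPM was that of EIF4EBP3, which is no result, as given below. EIF4EBP2, which sequesters eIF4E when it is not phosphorylated, had 50.2, 47.2 and 47.2 TPM in control and 21.6, 21.2 and 22.1 TPM in shFAM111B cells (log2 fold change -1.12, standard error 0.0566). EIF4ENIF1 (4E-T, which carries eIF4E to the nucleus and to P-bodies) went from 12.1, 14.9 and 13.5 TPM to 4.89, 5.31 and 4.93 TPM (log2 fold change -1.26, standard error 0.103). Both fell in all scalings. EIF4EBP1, the most abundant of them, had 165, 167 and 185 TPM and then 209, 177 and 209 TPM. Its groups overlapped and its log2 fold change of 0.20 did not pass (adjusted p = 0.0633 by limma), but it passed with values of 0.61 to 0.73 under 3 scalings and was 0.07 under quantile normalization and after rescaling. It also passed without control replicate 3 (0.25, adjusted p = 0.0429) or shFAM111B replicate 2 (0.28, adjusted p = 0.00902), again by limma. The EIF4EBP2 share of EIF4EBP1 and EIF4EBP2 went from 21.9% ± 1.53 to 9.89% ± 0.727.

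EIF4EBP3 passed the filter only through the shFAM111B libraries, so it could enter the test only as a higher gene, and its call is no result. It was listed at 0, 0.49 and 0 TPM in the control libraries and at 4.52, 4.99 and 7.96 TPM in the shFAM111B libraries. No fold is given because control libraries were listed at 0. EIF4EBP3 (chr5:140547666-140549578) lies at the end of the readthrough gene ANKHD1-EIF4EBP3, which went the other way from 15.0 ± 1.32 to 7.99 ± 0.696 TPM, and the split of reads between them is uncertain. The member also had the shortest transcript of those tested, at 691 nt.

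Among the factors of start codon choice and subunit joining, EIF1AX, which promotes scanning, fell in all scalings. It had 61.4, 57.6 and 60.9 TPM in control and 27.1, 30.5 and 28.4 TPM in shFAM111B cells, a log2 fold change of -1.04 (standard error 0.0635). EIF1, which guards the choice of start codon and is the most abundant of the group, had 512, 541 and 523 TPM and then 658, 636 and 703 TPM. Its log2 fold change of 0.34 passed with the deposited TPM and ran from -0.07 after quantile normalization to 0.87 after subtraction of library medians. EIF1AD, EIF5B and EIF5 had values of -0.61, -0.58 and -0.44 that passed with the deposited TPM but not in all scalings, and EIF5 reached 0.09. EIF1B had 90.2, 98.3 and 102 TPM and then 90.2, 97.1 and 89.6 TPM, and its log2 fold change of -0.07 was -0.20 after rescaling and 0.01 under quantile normalization, and turned to 0.34 to 0.47 under the other 3 scalings. With the trend with length and expression removed EIF1B was -0.60 and passed (adjusted p = 0.00115 by limma). The Y-linked copy of EIF1AX stayed under the filter.

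EEF1A1 was the most abundant member, and its share of the elongation factors was lower in shFAM111B cells. EEF1A1 (ENSG00000156508, chr6:73515750-73523797), the source of the first TOP start shown above, had 7742, 7660 and 7660 TPM in control and 5301, 5269 and 5364 TPM in shFAM111B cells. It was 1.45-fold lower with a log2 fold change of -0.53 (standard error 0.0380), but this value was -0.08 after median-of-ratios scaling and 0.00 after subtraction of the library medians, and it did not pass there. After rescaling it was -0.66, and with the trend with length and expression removed -0.87. Within a library it went from 67.4% ± 0.220 to 57.3% ± 1.74 of the summed TPM of the 6 elongation factors. The 39 EEF1A1 pseudogene rows together held 6.86 ± 1.12 and 4.61 ± 0.228 TPM.

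EEF1D, the delta subunit of the complex that recharges eEF1A, rose in all scalings. It had 380, 385 and 396 TPM in control and 664, 587 and 766 TPM in shFAM111B cells, a log2 fold change of 0.79 (standard error 0.0920). EEF1B2, the other exchange subunit, had 888, 901 and 906 TPM and then 1011, 966 and 1068 TPM. The log2 fold change of EEF1B2 was 0.18 and ran from -0.28 after quantile normalization to 0.71 after subtraction of library medians, and it did not pass without control replicate 1 (adjusted p = 0.0509 by limma). EEF1G, the gamma subunit that anchors the complex, had 1166, 1165 and 1181 TPM and then 860, 850 and 872 TPM, a log2 fold change of -0.44 that was -0.89 under quantile normalization and -0.57 after rescaling, and turned to 0.01 and 0.09, which did not pass, under the median-of-ratios and median-subtracted scalings. AP002990.1, a gene annotated over EEF1G on the same strand, went from 402.6 ± 8.57 to 581.6 ± 47.9 TPM, so reads may be split between them. The sum of EEF1G and AP002990.1 was 1573 ± 16.7 and 1442 ± 58.6 TPM. The ratio of EEF1D to EEF1G went from 0.331 ± 0.00456 to 0.781 ± 0.0942, and that of EEF1D to the sum from 0.246 ± 0.00246 to 0.465 ± 0.0432, with no overlap in either case. EEF2, the translocase, had 1262 ± 7.03 and 1411 ± 176.3 TPM and a log2 fold change of 0.15 that did not pass and ran from -0.31 to 0.69 over the scalings.

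The members together summed to 21140, 21120 and 21330 TPM in control and 17330, 16930 and 18170 TPM in shFAM111B cells, a change of -17.6% (exact two-sided permutation p = 0.1, the smallest possible). This sum scales with the libraries. Median-of-ratios scaling divided the control libraries by 1.172, 1.165 and 1.176 and the shFAM111B libraries by 0.846, 0.851 and 0.8653. Divided that way the members' sum was higher in shFAM111B cells, so its direction depended on the scaling. Without EEF1A1 the sums were 13510 ± 143.1 and 12160 ± 588.5 TPM as deposited. As a share of all TPM the members went from 2.13% ± 0.00902 to 1.77% ± 0.0501. EEF1A1 held 36.3% ± 0.356 of the members' TPM in control and 30.4% ± 0.823 in shFAM111B cells.

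Of the 7 enzymes that modify elongation factors, 3 were higher and 2 lower at an adjusted p under 0.05 with the deposited TPM. Among all tested genes these shares were 21.1% and 50.9%. In all scalings 0 were higher and 2 lower, beside 17.5% and 29.3%. EEF1AKMT3, a lysine methyltransferase of eEF1A, went from 4.90, 4.88 and 5.34 TPM to 2.09, 2.15 and 1.89 TPM (log2 fold change -0.99, standard error 0.109). EEF2K, the kinase that phosphorylates and inhibits eEF2, went from 4.72, 5.58 and 5.15 TPM to 2.13, 2.75 and 2.01 TPM (log2 fold change -0.90, standard error 0.133). Both fell in all scalings, and EEF2K had a value of -0.04 with the length and expression trend removed. EEF1AKMT4, the most abundant of the group, had 34.0, 35.5 and 39.7 TPM and then 43.8, 42.8 and 45.7 TPM, a log2 fold change of 0.27. EEF1AKNMT, which methylates the N-terminus and a lysine of eEF1A, had 16.6, 15.4 and 17.9 TPM and then 23.0, 28.2 and 19.1 TPM, a log2 fold change of 0.46. EEF1AKMT1 had a value of 0.35. These 3 passed with the deposited TPM but not after rescaling without mitochondrial and short RNA genes, and EEF1AKNMT also failed without control replicate 1, control replicate 2 or shFAM111B replicate 1 (adjusted p of 0.0503 to 0.0691 by limma). EEF1AKMT1 failed without control replicate 2, control replicate 3, shFAM111B replicate 1 or shFAM111B replicate 2 (adjusted p of 0.0536 to 0.0724).

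For termination, ETF1 (eRF1, which reads stop codons) went from 80.0, 81.6 and 74.8 TPM to 32.6, 34.2 and 30.4 TPM, a log2 fold change of -1.26 (standard error 0.0647) that held in all scalings. GSPT1 (eRF3, its GTPase partner) had 88.7, 97.1 and 93.0 TPM and then 63.8, 62.0 and 57.1 TPM. Its log2 fold change of -0.60 did not pass after median-of-ratios scaling or median subtraction. EIF5A, which helps ribosomes through difficult sequences, had 750, 738 and 777 TPM and then 716, 720 and 719 TPM, with a log2 fold change of -0.07 that was -0.48 under quantile normalization and -0.20 after rescaling, and turned to 0.34 to 0.46 under the other 3 scalings. EIF5A2 had 3.21, 3.26 and 2.99 TPM and then 2.19, 2.18 and 6.07 TPM, so shFAM111B replicate 3 set its value of 0.00, which was -0.38 without that library (adjusted p = 0.0385 by limma). EIF6, which keeps ribosomal subunits apart, had 341, 363 and 378 TPM and then 447, 412 and 461 TPM, a log2 fold change of 0.29 that ran from 0.00 after quantile normalization to 0.82 after subtraction of library medians.

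Of the 7 rows in no role list 4 were tested, and EIF1B-AS1, antisense to EIF1B, fell from 3.54 ± 0.240 to 1.26 ± 0.166 TPM (log2 fold change -1.01). The antisense gene overlaps EIF1B on the opposite strand, so reads may be shared. EEF1E1-BLOC1S5, EIF3J-DT and EIF2AK3-DT did not pass. EEF1AKMT4-ECE2 and EIF1AX-AS1 were listed at 0 in every library. The members under the filter also included EIF2B5-DT and EIF5AL1.

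Longer transcripts had lower log2 fold changes, among translation factors as in the whole table. The Spearman correlation of log2 fold change with the longest annotated transcript was -0.39 over 73 members and -0.46 over 14263 tested genes with a length. Genes share their libraries and are not independent replicates, so these values are descriptions. Among members up to 2000 nt, 1 of 15 was lower by at least 2-fold (6.67%, beside 8.36% of all tested genes of that length). Between 2000 and 4000 nt it was 9 of 32 (28.1%, beside 18.7%) and above 4000 nt 11 of 26 (42.3%, beside 39.2%). With the trend with length and expression removed, 22 of the 24 members that fell in all scalings were still lower at an adjusted p under 0.05 (91.7%, beside 83.2% of all genes that fell in all scalings). Of the 8 higher in all scalings 7 were still higher (87.5%, beside 84.3%). EIF4EBP3, whose call is no result, is counted in both numbers, so this share rests in part on it. Many falls were smaller, and the members lower by at least 2-fold went from 21 to 8. The values were then -0.29 for EIF4E, -0.30 for EIF4EBP2, -0.44 for EIF1AX, -0.55 for EIF2S1, -0.63 for EIF4ENIF1, -0.64 for EIF2AK1, -0.75 for ETF1 and -0.83 for EIF2AK2. EIF3G was at 0.31, while EIF4E2 was at 0.85. EIF3A then had a value of -1.49, EIF2AK3 of -1.47 and EIF3C of 1.35.

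Genes that work beside these factors were also examined. Of 47 genes on lists of helpers, regulators, recycling and mitochondrial factors, 45 were tested, of which 27 were lower and 10 higher at an adjusted p under 0.05, beside 50.9% and 21.1% of all tested genes. By at least 2-fold, 13 were lower and 1 was higher, beside 23.7% and 6.82%. For ribosome recycling and rescue 3 of 4 fell by at least 2-fold. ABCE1, the ATPase that splits finished ribosomes, went from 80.9, 77.2 and 70.8 TPM to 17.3, 19.5 and 19.1 TPM (log2 fold change -1.98, standard error 0.0758). HBS1L, which rescues stalled ribosomes, went from 87.5 ± 3.87 to 27.1 ± 1.94 TPM (SD, n = 3). Its partner PELO had a value of -0.20 with overlapping groups.

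Among initiation helpers, DDX3X, a helicase for structured leaders, fell from 180, 158 and 155 TPM to 26.2, 29.4 and 24.4 TPM (log2 fold change -2.58, standard error 0.0884). LARP1, which binds TOP mRNAs, fell from 95.9, 95.5 and 93.8 TPM to 18.0, 19.4 and 17.4 TPM (log2 fold change -2.32, standard error 0.0585). MCTS1, which works with DENR in reinitiation, rose from 11.7, 8.59 and 11.5 TPM to 49.9, 50.8 and 61.7 TPM (log2 fold change 2.26, standard error 0.136), whereas DENR had a log2 fold change of -0.75. These 4 kept their direction in all scalings. PAIP1, a partner of poly(A)-binding protein, had 51.2, 46.4 and 40.4 TPM and then 55.8, 57.6 and 51.9 TPM, and its log2 fold change of 0.26 did not pass without control replicate 2, control replicate 3, shFAM111B replicate 1 or shFAM111B replicate 2 (adjusted p of 0.0791 to 0.103 by limma).

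Around the eIF2 kinases, all 5 listed genes were lower at an adjusted p under 0.05 with the deposited TPM, beside 50.9% of all tested genes, and 3 of them were lower in all scalings. GCN1, the activator of GCN2, went from 43.3, 44.6 and 50.1 TPM to 12.4, 14.3 and 11.8 TPM (log2 fold change -1.77, standard error 0.0934). PPP1R15B, which directs a phosphatase to eIF2, went from 15.2, 13.8 and 14.6 TPM to 5.71, 6.16 and 5.04 TPM (log2 fold change -1.23). Both fell in all scalings, as did PPP1R15A, the stress-induced counterpart, at -1.02. ATF4, the transcription factor translated when eIF2 is phosphorylated, went from 511.8 ± 12.4 to 458.2 ± 27.2 TPM, and its value of -0.16 reversed in 3 of the 6 scalings, running from -0.52 to 0.37. IMPACT, which binds GCN1, went from 10.1 ± 0.670 to 5.84 ± 1.67 TPM, and its value of -0.72 was -0.08 with the trend with length and expression removed.

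On the list of 13 genes that act beside elongation factors, 4 were higher and 5 lower at an adjusted p under 0.05. Among all tested genes these shares were 21.1% and 50.9%. In all scalings 3 were higher and 3 lower, beside 17.5% and 29.3%. DPH2, which starts the diphthamide modification of eEF2, went from 36.6, 36.8 and 40.7 TPM to 17.1, 16.9 and 16.0 TPM (log2 fold change -1.15), while DPH5, a later methyltransferase of the same route, went from 15.6, 15.9 and 16.8 TPM to 35.3, 25.6 and 27.9 TPM (log2 fold change 0.83, standard error 0.120). DPH3 went from 30.6, 30.1 and 29.4 TPM to 47.6, 43.7 and 55.1 TPM. SECISBP2, which serves selenocysteine insertion, fell from 31.7 ± 1.01 to 11.6 ± 1.33 TPM. These 4 kept their direction in all scalings.

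The mitochondrial factors were mixed. GFM1, a mitochondrial elongation factor, fell from 38.0, 40.6 and 35.9 TPM to 8.39, 9.73 and 7.19 TPM (log2 fold change -2.06, standard error 0.112), and MTIF2 fell from 38.7, 37.3 and 34.9 TPM to 20.6, 18.9 and 21.3 TPM. TUFM, which delivers aminoacyl-tRNA in mitochondria, rose from 169, 171 and 176 TPM to 221, 217 and 286 TPM, and MTIF3 rose from 32.9, 28.8 and 30.8 TPM to 45.9, 42.9 and 51.4 TPM. These 4 kept their direction in all scalings, and MTIF3 did not pass with the length and expression trend removed (0.25).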

How the data were processed

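RNA sequencing of 3 control and 3 shFAM111B Huh7 libraries was analysed. The authors deposited one table of TPM per gene and library, with group means and their own fold change (ratio), log2 fold change, p-value and adjusted p-value, none of which were used. The submitters' processing notes name RSEM, DESeq2 and hg38, and versions, annotation and strand setting are not given in the sources used here. The labels name a stranded poly(A) kit and the paper a TruSeq kit. Without a known strand setting, reads of genes that overlap on opposite strands may be shared. The depth behind the TPM is unknown, and no interval for counting error was computed. They summed to 978634 to 997094 per library.

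Genes reaching 1 TPM in 3 or more libraries were compared on log2(TPM + 1) with limma 3.58.1 (lmFit and eBayes with trend, R 4.3.3) with Benjamini-Hochberg adjustment over 14394 genes. Calls required a 2-fold change with P under 0.05 or, where stated, an adjusted p under 0.05. Shares and sums were compared by exact two-sided permutation. Libraries correlated at 0.969 to 0.984 within and 0.865 to 0.883 between groups, and at most 0.889% of tested genes had identical values, so no library was taken as a duplicate. Positions and lengths came from GENCODE v29 (GRCh38; 96.3% of identifiers matched), and loess (span 0.75) took out the trend with length and expression.

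The members and lists were chosen with earlier results of these data known. Named in each list were the most abundant member and up to 2 rises and 2 falls with the largest change at an adjusted p under 0.05 and without overlap, both genes of each paralog pair, and FAM111B. Other genes were named after their values were seen. Ratios, shares within complexes, sums of overlapping genes, the joint call over 6 scalings and the start sequences were also chosen after seeing the data. EEF1E1-BLOC1S5 matches the symbol rule and was kept. Scripts were tested on simulated data. Python 3.11.15 with pandas 2.3.3, scipy 1.17.1 and matplotlib 3.10.9 was used. One marker result is not reported here.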

Additional observations from a re-analysis of the deposited data

How the results depend on the processing

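The TPM give no depth, and 3 libraries against 3 limit every exact test to a p of 0.1. The counts of members higher and lower by at least 2-fold, 2 and 21 with the deposited TPM, depended on scaling. They were 4 and 5 under median-of-ratios as well as upper-quartile scaling, 1 and 11 under quantile normalization, 8 and 4 after subtraction of library medians, 1 and 25 after rescaling without mitochondrial and short RNA genes, and 5 and 8 with the length and expression trend removed. EIF4EBP3, whose call is no result, is counted as higher in each of these settings. Under quantile normalization and after rescaling it was the only higher member. Of all tested genes 6.82% were higher and 23.7% lower with the deposited TPM, 14.1% and 12.5% under median-of-ratios scaling, 13.2% and 13.3% under upper-quartile scaling, 11.8% and 12.8% under quantile normalization, 18% and 9.07% after subtraction of library medians, 5.65% and 28.6% after rescaling, and 9.6% and 9.14% with the trend removed. Higher calls fell to 1 when every library needed 1 TPM, and with adjusted p and no fold limit there were 15 and 42. Without a filter on TPM the counts were 2 and 21, but most residual variances were then 0 and that fit is unreliable. Leaving out each library in turn gave 2 higher and 19 to 22 lower members, with 19 lower without shFAM111B replicate 1 or shFAM111B replicate 3. The difference in the summed TPM of the members was -3724, and it was -1348 without EEF1A1 and -6617 after rescaling. Over all members it turned positive when the libraries were divided by the median-of-ratios factors.

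For the genes chosen by the naming rule, directions that passed the threshold with the deposited TPM or under the alternative reversed as follows. After median-of-ratios scaling the values were 0.0112 for EEF1G, 0.38 for EIF1B, 0.20 for EIF2B5, 0.30 for EIF4A1, 0.0261 for EIF4G1, 0.38 for EIF5A and 0.14 for PABPC4. After upper-quartile scaling they were 0.34 for EIF1B, 0.16 for EIF2B5, 0.26 for EIF4A1, 0.34 for EIF5A and 0.10 for PABPC4. After subtraction of library medians they were 0.48 for EEF1A2, 0.0895 for EEF1G, 0.47 for EIF1B, 0.29 for EIF2B5, 0.37 for EIF4A1, 0.11 for EIF4G1, 0.46 for EIF5A and 0.22 for PABPC4. Quantile normalization gave -0.28 for EEF1B2, -0.0719 for EIF1, 0.0901 for EIF2B5 and -0.0044 for EIF6. With the length and expression trend removed the values were -0.0183 for EEF1AKMT1, -0.17 for EEF1B2, 0.36 for EIF2B5, -0.0498 for EIF6 and 0.0417 for GSPT1. Leaving out each library in turn, EIF5A2 ran from -0.382 without shFAM111B replicate 3 to 0.194 without shFAM111B replicate 2, and without shFAM111B replicate 3 the difference in its share of the pair was -0.113 percentage points. The cause was not tested. Sign changes that passed in neither setting were also seen for EEF1A2, EIF1B, EIF4EBP1 (-0.34 with the trend removed) and EIF5A2. EIF3B, EIF3CL, EIF3H, EIF3I, EIF3M and EIF5 also passed with the deposited TPM and were above 0 in at least 1 scaling, and EIF5B was above 0 (0.08) with the trend removed. Of the other values recomputed for named genes and paralog shares, 49 missed a threshold that the deposited TPM passed, 10 newly passed one and 1044 did neither.

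Same-numbered control and shFAM111B libraries had deviations that correlated at 0.054, 0.0349 and 0.0908, so the numbers were not taken to pair the samples. With the replicate number as a block (replicate block) there were again 2 higher and 21 lower members, and EIF4EBP1 passed at 0.20.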
